A study of Mus musculus with 83 samples.

Results

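Among 34 single mouse embryos at the 4-cell stage, the 11 richest and the 11 poorest in a small set of oocyte transcripts were compared over all their other genes. The members were chosen by measured values: each embryo was scored by the mean log2(TPM + 1) of Omt2a, Omt2b, Npm2 and Zp3, where TPM is a gene's share of the library's transcripts scaled so that all genes of a library add up to 1000000. The 11 embryos of highest score are called the high side, the 11 of lowest score the low side and the remaining 12 the middle. The 22 embryos of the sides are part of a series of 83 libraries, which also holds 43 morulae and 6 sperm small RNA libraries. The embryos came from fertilization by sperm of males that were 8 to 12 weeks old. Heat-exposed males had spent 7 days in a chamber that was warmed to 35 °C for 8 h of each day and kept at 25 °C for the other 16 h, and control males spent the time in the same housing held at 21 °C. The 4-cell set holds 16 control-sired and 18 heat-sired embryos, the morula set 22 and 21, and polyadenylated RNA of each embryo was made into a Nextera XT library. Only the fathers were treated. The labels used here give no strain, and no father, mother, litter or collection day of an embryo, so embryos may share parents and p-values measure the spread between embryos.

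A mouse egg stops transcribing before it is ovulated and carries a store of maternal mRNA. That store is degraded in waves, by the CCR4-NOT deadenylase and its adaptor BTG4 during meiotic maturation and by further routes after the embryo's own genome is switched on at the 2-cell stage. Transcripts of oocyte genes still found at the 4-cell stage are largely leftovers of that store. Of the score genes, Omt2a and Omt2b are a pair of adjacent genes named for their expression at oocyte maturation. Npm2 encodes nucleoplasmin 2, the egg's histone chaperone, and Zp3 a glycoprotein of the zona pellucida, the coat around the egg.

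The stretch around the transcription start is shown for Omt2a, Omt2b and Zp3, since these genes set the ranking and are classed together as oocyte genes. In the GRCm38.p6 assembly Omt2a lies at chr9:78311972-78314797, Omt2b at chr9:78328030-78329620, Zp3 at chr5:135980105-135988624 and Npm2 at chr14:70647296-70661802. Each sequence runs 5′ to 3′ on the gene's strand from 250 bases before the start to 50 after it. The windows are chr9:78313999-78314298 (minus strand) for Omt2a, chr9:78327780-78328079 (plus strand) for Omt2b and chr5:135979855-135980154 (plus strand) for Zp3. The Omt2a window surrounds a start that lies inside the gene span above, not at its outer end. Capitals mark the E-box CANNTG, the type of site bound by the oocyte factor FIGLA, and TAATTG, the type of site bound by the oocyte factor NOBOX, searched on both strands with no overlap between them.
Omt2a: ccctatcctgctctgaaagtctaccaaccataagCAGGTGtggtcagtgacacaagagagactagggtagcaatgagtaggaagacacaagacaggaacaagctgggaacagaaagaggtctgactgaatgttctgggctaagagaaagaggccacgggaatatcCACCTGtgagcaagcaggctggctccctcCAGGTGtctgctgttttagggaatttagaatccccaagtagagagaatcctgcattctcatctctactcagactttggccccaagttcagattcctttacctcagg
Omt2b: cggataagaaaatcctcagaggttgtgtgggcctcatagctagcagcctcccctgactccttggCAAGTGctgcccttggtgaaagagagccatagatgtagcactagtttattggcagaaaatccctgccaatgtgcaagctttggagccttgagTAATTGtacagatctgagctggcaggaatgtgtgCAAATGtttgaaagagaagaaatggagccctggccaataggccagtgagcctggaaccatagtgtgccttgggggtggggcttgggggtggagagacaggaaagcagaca
Zp3: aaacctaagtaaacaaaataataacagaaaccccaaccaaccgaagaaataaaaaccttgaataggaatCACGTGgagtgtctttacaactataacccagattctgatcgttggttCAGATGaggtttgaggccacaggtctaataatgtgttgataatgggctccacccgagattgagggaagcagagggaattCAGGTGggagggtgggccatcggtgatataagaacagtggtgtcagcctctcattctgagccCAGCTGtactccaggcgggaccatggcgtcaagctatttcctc

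Zp3 held 4 E-boxes, Omt2a 3 and Omt2b 2, and Omt2b also held 1 TAATTG. Among all 32851 RefSeq promoter windows of this length, 72.3% held an E-box and 8.00% a TAATTG, so the E-box letters are common. Of the genes at least 2-fold higher on the high side that had a promoter entry (203 of 250), 69.0% held an E-box and 2.96% a TAATTG, against 61.9% and 4.28% of the 5492 genes compared that had one.

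The scores showed no gap at either boundary, although inside the high side they stepped from 8.07 to 7.59 and from 7.29 to 6.90. They ran from 6.75 to 8.07 on the high side (median 7.31), from 6.28 to 6.71 in the middle and from 5.39 to 6.25 on the low side (median 5.94). The last embryo inside the high side scored 6.75 and the first outside it 6.71. At the lower boundary the first outside scored 6.28 and the last inside 6.25.

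**Figure D1:**
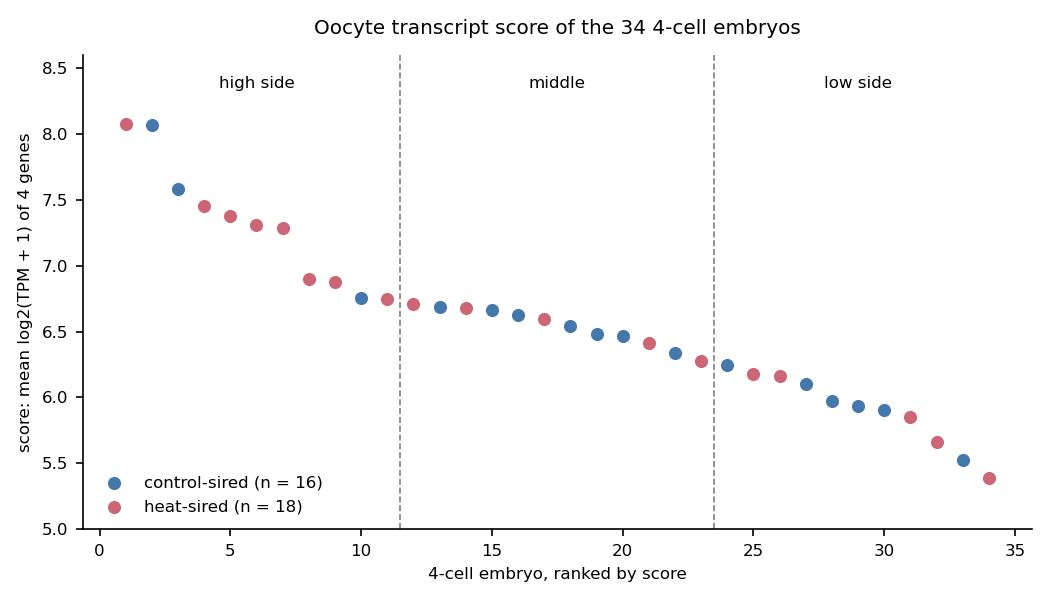
Score (mean log2(TPM + 1) of Omt2a, Omt2b, Npm2 and Zp3) of each of the 34 4-cell embryos in rank order; each point is 1 embryo, coloured by paternal group, and dashed lines bound the 11 high and 11 low embryos. The scores fall from 8.07 to 5.39 with no step at either line, and both colours occur on each side.

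The high side held 8 heat-sired and 3 control-sired embryos and the low side 5 heat-sired and 6 control-sired. The middle held 5 and 7. Fisher's exact test of this mix gave a two-sided p of 0.387, and the mix became 6 and 5 heat-sired when Zp3 was left out of the score. The mean score was 6.66 ± 0.69 in heat-sired embryos (SD, n = 18) and 6.50 ± 0.63 in control-sired embryos (SD, n = 16), a difference of 0.17 (two-sided permutation test, p = 0.461). The sides therefore differ in paternal mix as well as in score, and for the genes and lists described most fully the difference is also given within control-sired embryos (3 high against 6 low) and within heat-sired embryos (8 against 5).

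The 4 score genes did not part the sides equally, and the values here are descriptions of the ranking, not tests. Zp3 was at 57.9 to 132 TPM on the high side (median 90.0) and at 3.30 to 48.7 on the low side (median 24.1), and no embryo of one side reached the other. Omt2a was at 58.6 to 414 TPM (median 159) against 22.1 to 80.6 (median 67.2), with 9 of the 11 high embryos above every low embryo. Omt2b was at 130 to 1344 TPM (median 421) against 54.9 to 327 (median 171), with 7 of 11 above every low embryo. Npm2 was at 34.8 to 211 TPM (median 115) against 20.0 to 203 (median 77.5), so the ranges of the sides nearly coincided. All 4 genes were above their own median over the 34 embryos in only 4 high embryos, and 6 more had 3 of them above it. On the low side 5 embryos had none of the 4 above its median.

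**Figure D2:**
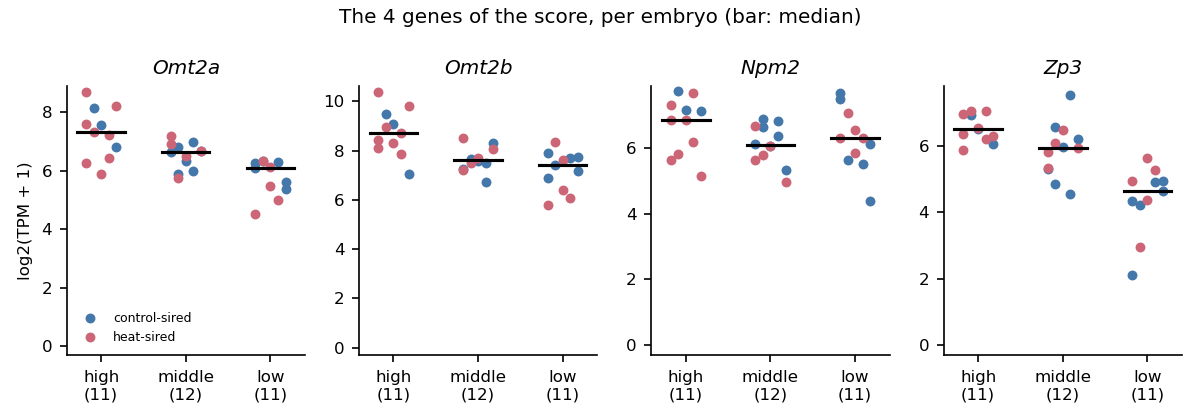
Level of the 4 score genes, as log2(TPM + 1), in each 4-cell embryo of the high (11), middle (12) and low (11) sets; points are embryos coloured by paternal group and bars are medians. Zp3 parts the sides without overlap (57.9 TPM and above against 48.7 and below), whereas Npm2 covers nearly the same range on each side.

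To see whether the score genes follow each other, embryos were ranked again on 3 genes and the left-out gene was read on the sides so formed. Ranked without Omt2a, the sides still differed in Omt2a (medians 159 and 67.2 TPM, log2 difference 1.41). Ranked without Omt2b, they still differed in Omt2b (421 and 197 TPM, 1.33). Zp3 did not follow the other 3. Ranked without Zp3, its log2 difference was -0.04, with 3.30 to 132 TPM on the high side and 17.6 to 183 on the low side. Npm2 also hardly followed the others, with a log2 difference of 0.15 and medians of 71.2 and 77.5 TPM. Leaving Zp3 out kept 7 of the 11 high and 7 of the 11 low embryos, and 2 of the high embryos moved to the low side. The score is thus led by the Omt2 pair and by Zp3 as separate measures, and the sides are called by their score here rather than as embryos rich or poor in oocyte RNA at large.

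The Omt2 pair lies 13.2 kb apart, in a stretch of chromosome 9 that holds other egg and early embryo genes. Within 200 kb, Ooep, a subunit of the subcortical maternal complex, had medians of 9.54 TPM on the high side and 4.92 on the low side (log2 difference 0.79). Dppa5a, a pluripotency-associated RNA-binding protein gene, was at 4868 to 13502 TPM (median 8631) against 4360 to 9494 (median 6985), a difference of 0.19. Gsta4, a glutathione transferase gene, differed by -0.00, Ddx43, a helicase gene, by -0.10 and Eef1a1, an elongation factor gene, by -0.40. None of these neighbours was at least 2-fold apart between the sides, and the difference of the Omt2 pair itself was set by the ranking.

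The number of genes detected did not part the sides of the full score. It was 6961 to 10274 on the high side (median 8628) and 6303 to 10250 on the low side (median 8529). Ribosomal protein genes took a median of 27.1% and 26.6% of TPM. In the ranking without Zp3 the sides did differ in genes detected, with medians of 7877 on the high side and 9105 on the low side. The part of this difference in the values given for that ranking was not tested. TPM keeps no read depth, so the counting error behind a value is unknown, and TPM cannot tell less of a transcript from more of all the others. A listed 0 can be a failed estimate, since genes that every cell uses were at 0 in single embryos. Polr2a was at 0 in heat-sired embryo 13 of the high side. Tbp was above 0 in every 4-cell embryo but at 0 in control-sired morulae 2 and 15. Levels are therefore given as the lowest, median and highest embryo.

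Over the other genes, 6737 reached 1 TPM in at least 50% of the 34 embryos. The difference between the sides is the mean log2(TPM + 1) of the high side less that of the low side, which understates changes of low genes, and a gene is called 2-fold higher or lower where it is at least 1 in size. On that scale 250 genes (3.71%) were at least 2-fold higher on the high side and 243 (3.61%) at least 2-fold lower, together 7.32%. The median over all genes compared was 0.01, and 50.9% lay above 0. The median of all genes was -0.15 within control-sired embryos, -0.10 within heat-sired embryos and -0.23 in the ranking without Zp3, and list medians given for these settings are to be read against those values. In 0 of 6737 genes (0%) did the embryos of the sides stand fully apart in either direction, and at most 9 of the 11 embryos of one side lay beyond all of the other. The sides were cut from these same libraries, so these counts are descriptions without a p-value. Genes of middling level passed 2-fold most often (10.8% of those with a median of 10 to 30 TPM) and abundant genes least (2.73% of those above 100 TPM). Of the 250 higher genes, 224 kept their sign in both control-sired and heat-sired embryos and 63 passed 2-fold in both, and of the 243 lower genes 229 and 133 did. This agreement is partly built in, since the paternal groups make up the pooled difference by which these genes were picked. The median of the middle embryos lay between those of the sides for 182 of the 250 and 139 of the 243. The same shares over all genes compared were not computed.

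The 15 genes with the largest positive difference were mixed in kind and did not include the usual oocyte genes, apart from the homeobox gene Obox5. Of them, 5 are long noncoding RNAs, 9 encode proteins and 1, Gm5643, is a transcribed pseudogene whose reads may be shared with its parent gene. In 14 of the 15 at least 1 low embryo was listed at 0, and for 6 the low median itself was 0. The largest difference, 2.86, was that of the noncoding RNA 1500011B03Rik (chr5:114808196-114813976), at 8.91 to 151 TPM on the high side (median 69.7) and 0 to 117 on the low side (median 0.60). It was above 0 in 11 high and 6 low embryos, and the difference was 4.34 within control-sired and 1.02 within heat-sired embryos.

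Ddit3, which encodes the stress transcription factor CHOP, was among the most even of these genes. It was at 24.4 to 167 TPM on the high side (median 50.8), at 1.63 to 96.0 in the middle (median 23.5) and at 0 to 63.8 on the low side (median 20.6). Its mean log2 level was 6.05 ± 0.91 against 3.76 ± 2.15 (SD, n = 11 each), a difference of 2.29, with 3.10 within control-sired and 1.29 within heat-sired embryos. Ddit3 was above 0 in all 11 high, all 12 middle and 9 of the 11 low embryos, and only 4 high embryos stood above every low embryo. Obox5, an oocyte and early embryo homeobox gene, had medians of 38.1, 9.49 and 7.69 TPM on the high side, in the middle and on the low side (difference 2.05). Within control-sired embryos its difference was 2.26 and within heat-sired embryos 1.52. In morulae its median was 0. Obox genes form a family of near copies, and how reads shared between them were divided is not stated.

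The other protein-coding leading genes with high medians above 15 TPM had varied roles. Sycn, a zymogen granule protein gene, was abundant, at 115 to 1532 TPM on the high side (median 244) and 2.61 to 265 on the low side (median 133). Its difference of 2.38 came mainly from heat-sired embryos (3.76, against 0.57 within control-sired ones). Sct, which encodes the hormone secretin, had medians of 31.9 and 0 TPM (2.28), although its highest value, 304 TPM, was in a low embryo. Gpha2, a glycoprotein hormone subunit gene, had medians of 24.4 and 1.91 TPM (2.11). Hilpda, a lipid droplet gene induced by hypoxia, had medians of 74.1 and 25.7 TPM (2.07), with 3.53 within control-sired and 0.54 within heat-sired embryos. Siah2, an E3 ubiquitin ligase gene, was at 1.34 to 42.8 TPM (median 15.1) against 0 to 20.1 (median 1.68), and its difference of 2.36 was 1.75 and 3.12 within the paternal groups. Siah2 thus kept a 2-fold difference in each group, and its morula median was 0.32 TPM.

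The rest of the 15 had high-side medians of 10.2 to 24.7 TPM. Nrn1l, a relative of the neuronal surface protein neuritin, was above 0 in 8 high and 2 low embryos, with medians of 13.4 and 0 TPM (2.68). Mxd4, a repressor of the MAX network, was above 0 in 10 high and 3 low embryos (2.19). Gm5643 had medians of 18.9 and 1.53 TPM (2.23). The noncoding RNAs Man2c1os (2.48), 4632427E13Rik (2.37), 1700084E18Rik (2.34) and Snhg10 (2.16) had high medians of 10.2 to 24.7 TPM and low medians of 0 to 1.96. Within control-sired embryos the difference was 0.01 for 1700084E18Rik and 0.12 for Snhg10. Man2c1os lies against the protein-coding gene Man2c1, and no source used here states counting by strand, so their reads may not be separable. The within-group differences of Man2c1os were 1.28 and 3.54. Several of these differences depended on Zp3: ranked without it, the difference was -0.60 for Nrn1l and -0.30 for 1700084E18Rik, and it was below 2-fold for 4632427E13Rik (0.87), Sycn (0.67), Hilpda (0.56) and Gpha2 (0.40).

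Long noncoding RNAs, a class looked at after these genes were seen, lay toward the high side beyond the leading ones. Of 118 compared, 20 were at least 2-fold higher (16.9%, against 3.71% of all genes compared) and 2 lower, and 81 lay above 0, with a median of 0.38. Their median was 0.16 within control-sired and 0.40 within heat-sired embryos. Their summed level was 3627 to 8047 TPM on the high side (median 5192) and 2591 to 5366 on the low side (median 4202), so the ranges overlapped widely. Among 6538 protein-coding genes 226 were higher, 235 lower and the median was 0.01.

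Another oocyte gene, Aurkc, ran against the score, and no gene had more low embryos above every high embryo. Aurkc encodes Aurora kinase C, the Aurora kinase of meiosis, which also serves in early embryonic divisions. On the low side it was at 2.63 to 713 TPM (median 478), in the middle at 16.4 to 725 (median 82.7) and on the high side at 3.27 to 131 (median 39.6). The low embryos fell into 9 at 137 TPM or more, all above every high embryo, and 2 at 42.98 or less. Its mean log2 level was 5.34 ± 1.35 on the high and 7.83 ± 2.32 on the low side (SD, n = 11 each), a difference of -2.49. The difference was -2.30 within control-sired and -2.40 within heat-sired embryos, and it lay between -3.56 and -2.08 over 16 other settings, the ranking without Zp3 included. In morulae the median was 50.9 TPM.

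The other Aurora kinases lay the same way. Aurkb, the kinase of the chromosomal passenger complex in mitosis, was at 0 to 45.6 TPM on the high side (median 10.3) and 5.07 to 111 on the low side (median 20.3), a difference of -1.44. Aurka, the spindle pole kinase, was at 26.9 to 322 TPM (median 103) against 49.6 to 493 (median 242), a difference of -0.81. Their ranges overlapped, unlike most of Aurkc's. Among 16 regulators of meiosis and M phase, 0 were 2-fold higher and 2 (Aurkc and Aurkb) were 2-fold lower (12.5%, against 3.61% of all genes). Of the 16, 12 lay below 0, so 25.0% lay above it, against 50.9% of all genes. The median was -0.26, or -0.64 and -0.32 within the paternal groups. The most abundant of them differed little: Pttg1, which encodes securin, by -0.03, the cyclin gene Ccnb1 by -0.42, the APC/C activator gene Cdc20 by -0.31 and Cdk1 by -0.23.

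**Figure D3:**
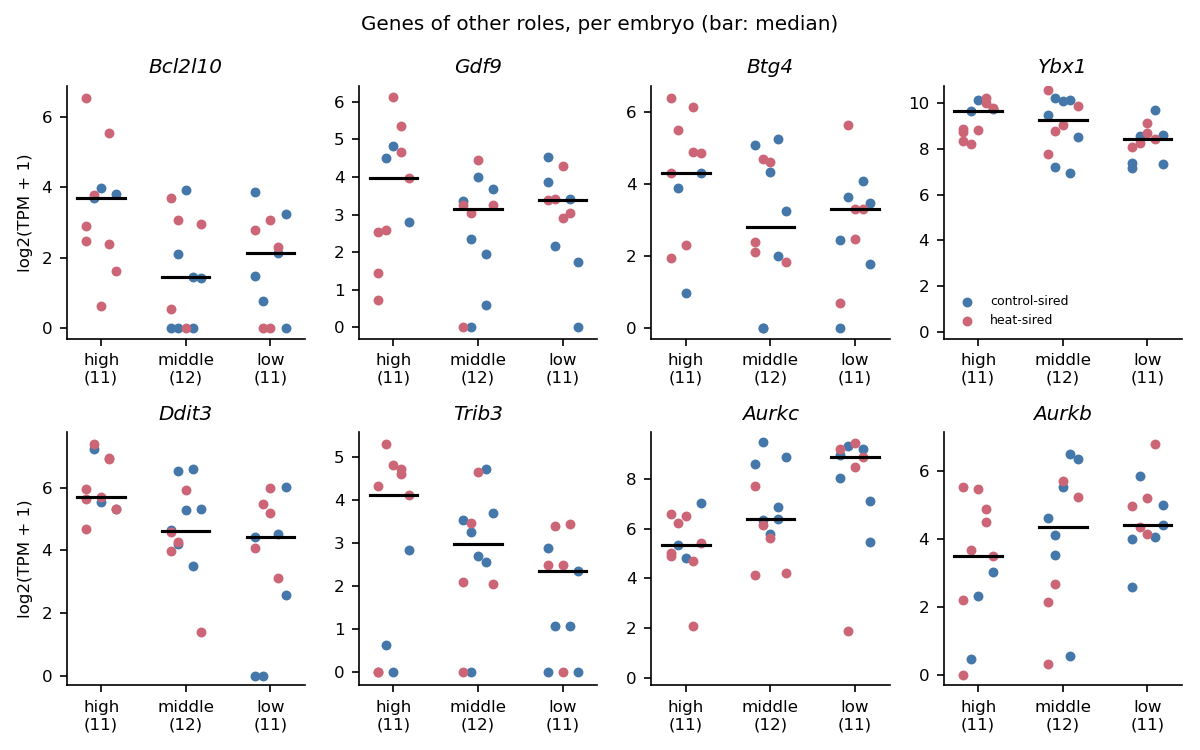
Level of 8 genes, as log2(TPM + 1), in each 4-cell embryo of the high (11), middle (12) and low (11) sets; points are embryos coloured by paternal group and bars are medians. Aurkc is the clearest panel, with low-side median 478 TPM against 39.6, whereas the high and low embryos overlap widely in Bcl2l10 (medians 12.0 and 3.36 TPM), Gdf9 (14.7 and 9.54) and Btg4 (18.6 and 8.81).

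Of the 15 genes with the most negative difference, 12 encode proteins and 3 are structural RNAs that normally lack a poly(A) tail. These 3 were Scarna13, a Cajal body RNA (-2.85), Snord17, a small nucleolar RNA (-2.27), and Rpph1, the RNA of RNase P (-1.92). Scarna13 was above 0 in 3 high and 8 low embryos, with medians of 0 and 53.3 TPM and within-group differences of -4.96 and -1.41, and Snord17 had medians of 24.2 and 85.9 TPM. Scarna13 (chr12:105031075-105031349) lies inside Snhg10 (chr12:105030617-105032279), which is among the 15 genes highest on the high side. Reads from this shared stretch cannot be assigned to one gene with certainty, so the opposite values of the 2 genes are uncertain. The sign of Scarna13 also depended on Zp3, and was 0.26 in the ranking without it. The other structural RNAs compared, Snora21 (-0.23) and Snora47 (-0.08), differed less, although the value for Snora47 joined 2.70 within control-sired and -0.88 within heat-sired embryos.

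The protein-coding genes among these 15 had varied roles. Vrk3, a gene of the vaccinia-related kinase family, was at 0 to 15.3 TPM on the high side (median 0.28) and 0 to 49.5 on the low side (median 14.8), a difference of -2.50. Asz1, a germ cell gene of the piRNA pathway, was above 0 in 3 high and 10 low embryos, with medians of 0 and 7.41 TPM (-2.30). Mtx2, a mitochondrial outer membrane protein gene, was at 0 to 61.6 TPM (median 11.9) against 0 to 374 (median 86.9), with 7 low embryos above every high one (-1.91). Rabggta, a subunit gene of the enzyme that attaches lipid to Rab proteins, was at 0 to 8.15 TPM (median 3.62) against 0.77 to 39.7 (median 11.3), also with 7 low embryos above every high one (-1.92). Pld3, a lysosomal enzyme gene, had medians of 8.91 and 79.1 TPM (-2.03), but the range of the high side, 0.72 to 173, covered that of the low side, 12.0 to 163. These genes were picked for a low-side excess, and none parted the sides fully.

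The remaining ones, Dtwd1 (-2.23), Ube2u (-2.01), Lect1 (-2.0), Tsc22d1 (-1.97), Tm2d1 (-1.90) and Spg21 (-1.86), had medians of 0 to 5.88 TPM on the high side and 7.34 to 30.2 on the low side. Ube2u belongs to the ubiquitin-conjugating enzymes and Tsc22d1 encodes a transcription regulator. Apart from Scarna13, each of the 15 kept its sign in every setting tried, which is partly built in, since most settings reuse most of the same embryos.

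**Figure D4:**
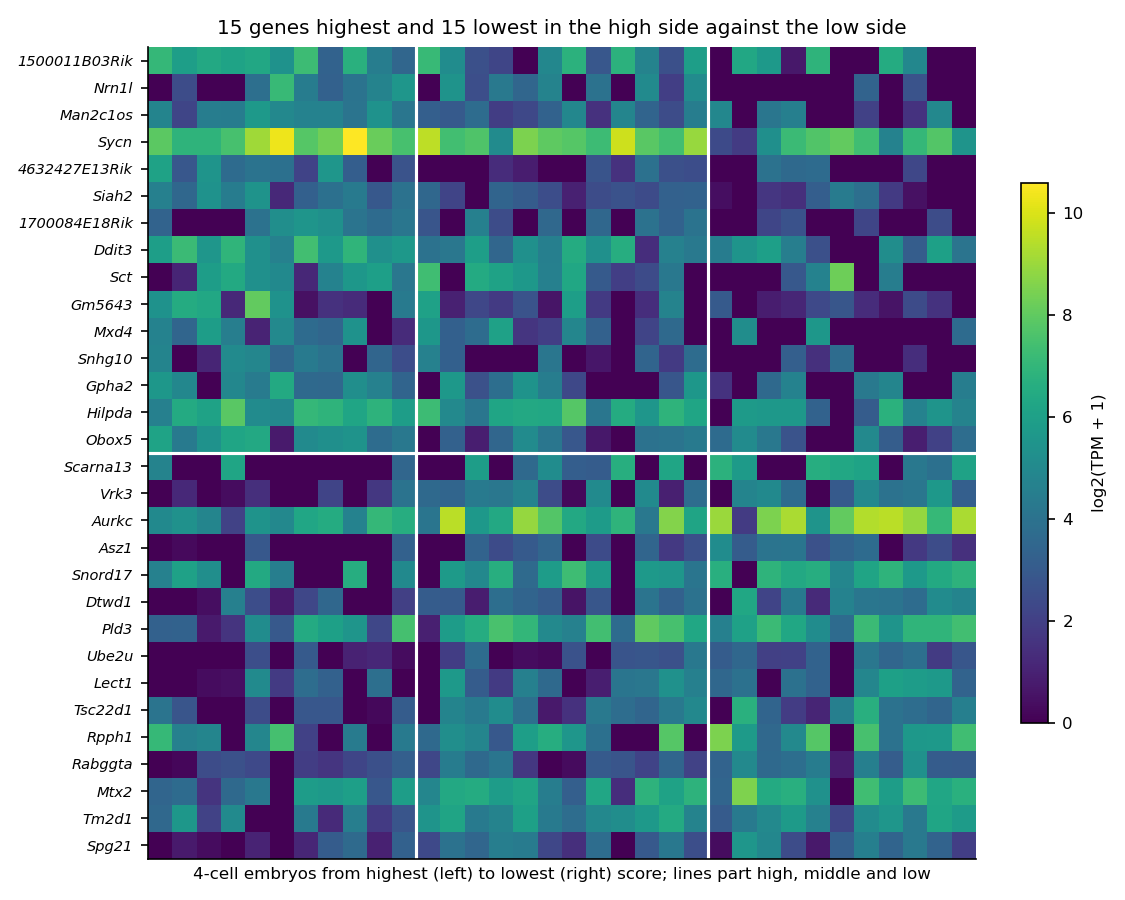
Level, as log2(TPM + 1) by colour, of the 15 genes most above and the 15 most below 0 in the high side less the low side (rows), in the 34 4-cell embryos (columns) from highest to lowest score. Single embryos depart from their side in most rows, and Sycn (up to 1532 TPM) and Aurkc (up to 725 TPM) are the most abundant.

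Other genes of the oocyte were read to see whether they shared the ranking, and they did so weakly. Of 18 oocyte-secreted and zona genes in the file 7 were compared. Of these 1 was 2-fold higher (14.3%, against 3.71% of all genes), 0 lower and 6 above 0 (85.7%, against 50.9%). Their median was 0.62, or 1.43 within control-sired and 0.02 within heat-sired embryos. Gdf9, the oocyte growth factor that acts on granulosa cells, was at 0.66 to 68.3 TPM on the high side (median 14.7) and 0 to 22.3 on the low side (median 9.54), a difference of 0.62 that was 1.43 within control-sired and 0.02 within heat-sired embryos. Bcl2l10, an oocyte survival gene of the BCL2 family, was the 1 past 2-fold, at 0.54 to 93.4 TPM (median 12.0) against 0 to 13.6 (median 3.36), a difference of 1.61. Gpr3, the receptor that holds oocytes in meiotic arrest, differed by -0.26 and Oosp1, an oocyte-secreted protein gene, by 0.60. The zona genes Zp1 (0.11) and Zp2 (0.39) and the growth factor gene Bmp15 (0.79) were too low to be compared, with Zp1 above 0 in 3 high and 2 low embryos, Zp2 in 4 and 3, and Bmp15 in 9 and 4.

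Of the subcortical maternal complex, an egg structure needed for the first cleavages, 6 genes were compared. Among them 2 were at least 2-fold higher (33.3%, against 3.71% of all genes), 0 lower and 5 above 0 (83.3%, against 50.9%), with a median of 0.76. Zbed3 was at 1.81 to 78.4 TPM on the high side (median 11.6) and 0.48 to 32.4 on the low side (median 4.80), a difference of 1.18. Padi6 was at 0.33 to 46.2 TPM (median 26.8) against 0 to 30.6 (median 11.4), a difference of 1.01. Khdc3, the most abundant, ran the other way at -0.60, with medians of 81.2 and 79.4 TPM on the sides and 1051 in morulae. Nlrp5, another subunit gene, was too low to be compared, and it was above 0 in 9 high and 3 low embryos (0.67). The list's median was 0.40 within control-sired and 0.36 within heat-sired embryos.

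Of 18 genes for maternal mRNA storage and decay, 2 were 2-fold higher (11.1%, against 3.71% of all genes), 0 lower and 14 above 0 (77.8%, against 50.9%), with a median of 0.24. Ybx1, which encodes the mRNA-packaging protein YB-1, was at 291 to 1195 TPM on the high side (median 813) and 142 to 823 on the low side (median 345), a difference of 1.03 that was 1.74 and 0.61 within the paternal groups. Btg4, the adaptor that brings CCR4-NOT to maternal mRNA, was at 0.96 to 83.5 TPM (median 18.6) against 0 to 48.4 (median 8.81), a difference of 1.33 that was 0.48 within control-sired and 1.46 within heat-sired embryos. Only 2 high embryos had more Btg4 than every low embryo. The deadenylase genes Cnot8 (-0.14) and Cnot7 (-0.43) and the exosome gene Exosc10 (0.10) differed little. For nuclear regulators inherited from the egg, of 12 compared, 0 passed 2-fold either way and the median was 0.13, or -0.20 within control-sired and 0.21 within heat-sired embryos. Dppa3, which protects the maternal genome from demethylation and is among the most abundant of these genes, had medians of 17943 and 17875 TPM. Trim28 differed by -0.42, Smarca4 by 0.05 and Ctcf by 0.37.

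Genes switched on at the 2-cell stage were mixed. Of 13 compared, 2 (Obox5 and Spz1) were 2-fold higher (15.4%, against 3.71% of all genes), 0 lower and 8 above 0 (61.5%, against 50.9%). Their median was 0.19, or -0.48 within control-sired and 0.29 within heat-sired embryos. Obox6, the most abundant, was at 126 to 2044 TPM on the high side (median 988) and 203 to 3068 on the low side (median 1369), a difference of -0.75, so it lay opposite to Obox5 (2.05) and Obox2 (0.90). The median of these 3 Obox genes, 0.90, was 2.03 and 0.19 within the paternal groups. Sp110 differed by -0.18, Eif1ax by 0.23 and Pramel6 by -0.48. Zscan4d, a marker of genome activation at the 2-cell stage, was near 0, above 0 in 5 high and 6 low embryos.

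The integrated stress response, the programme in which ATF4 and CHOP act when translation is braked, had the highest share of 2-fold genes among the lists with at least 10 genes compared. Of 14 compared, 3 (21.4%, against 3.71% of all genes) were 2-fold higher, 0 lower and 11 (78.6%, against 50.9%) above 0, with a median of 0.46 against 0.01 for all genes. The 3 were Ddit3, the pseudokinase gene Trib3 and Mthfd2, a gene of mitochondrial folate metabolism. Trib3 was at 0 to 38.7 TPM on the high side (median 16.4) and 0 to 9.85 on the low side (median 4.12), a difference of 1.10. The 3 control-sired high embryos were at 0, 0.56 and 6.12 TPM, within the 0 to 6.37 of the 6 control-sired low ones. High Trib3 values on the high side were thus all in heat-sired embryos, at 0 to 38.7 TPM against 0 to 9.85. Mthfd2 was at 0.92 to 16.5 TPM (median 9.67) against 0 to 12.2 (median 6.22), a difference of 1.11. Atf4 itself differed by 0.00, Psat1, a serine synthesis gene, by 0.13, Nupr1 by 0.02 and Slc3a2, an amino acid transporter gene, by -0.36. The list's median was 0.03 within control-sired and 0.53 within heat-sired embryos, and it turned to -0.74 in the ranking without Zp3, although Ddit3 kept a difference of 1.97 there. Of 15 genes of the p53 and apoptosis list 0 passed 2-fold, 11 lay above 0 (73.3%, against 50.9%) and the median was 0.25.

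Heat shock and chaperone genes did not share this direction. Of 30 compared, 1 was 2-fold higher (3.33%, against 3.71% of all genes), 0 lower (against 3.61%) and 9 above 0 (30%, against 50.9%). The list's median was -0.13, or -0.40 within control-sired and -0.25 within heat-sired embryos. The medians of all genes in these groups were -0.15 and -0.10. Hspb1, a small heat shock protein gene, was the 1 past 2-fold, with a difference of 1.16. It was at 58.8 to 843 TPM on the high side (median 319) and 21.0 to 708 on the low side (median 107). Hsp90ab1 differed by -0.01, Hsp90aa1 by 0.55, Dnajb6 by -0.11 and Hspa8 by -0.13. Of the 8 subunits of the CCT chaperonin, which folds actin and tubulin, 7 lay below 0, between -0.88 and 0.28 with a median of -0.47. The proteasome, the protease of ubiquitin-tagged proteins, also lay toward the low side. Of its 35 genes compared, 29 were below 0 with a median of -0.22, all 6 ATPase subunits among them. Above 0 lay 17.1%, against 50.9% of all genes, but only 1 was 2-fold lower (2.86%, against 3.61%). The abundant Psma7 (-0.49), Psma6 (-0.21), Psmb2 (-0.24) and Psmb5 (0.14) show the size of these differences. The proteasome median was -0.12 within control-sired embryos, close to the -0.15 of all genes there, and -0.39 within heat-sired embryos against -0.10.

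Genes of the embryo's own programmes had medians from -0.42 to -0.02. Of 19 pluripotency genes 0 passed 2-fold and the median was -0.02, with Pou5f1 at medians of 396 and 396 TPM (-0.16), Nanog at 9.42 and 11.1 (0.20), Dppa4 at -0.30, Dppa2 at -0.09 and Klf5 at -0.63. The list's median was -0.41 within control-sired and 0.02 within heat-sired embryos. Of 21 trophectoderm and compaction genes 2 were higher and 2 lower (19.0% past 2-fold, against 7.32% of all genes), with a median of -0.04 that was -0.48 within control-sired and 0.07 within heat-sired embryos. Cldn4, a tight junction gene, was 1 of the 2 lower (-1.33), and Cldn7 (-0.29), the lineage factor gene Tead4 (-0.28) and Fabp5 (0.12) were not past 2-fold. Cdx2, Gata3 and Krt8, which mark the trophectoderm, were at medians of 0 to 0.82 TPM on both sides and had morula medians of 37.5, 53.7 and 135 TPM. Primitive endoderm genes (3 compared) had the lowest list median, -0.42, which was -0.98 and -0.43 within the paternal groups, and 0 passed 2-fold.

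The large lists of general genes had few members past 2-fold. The 83 cytosolic ribosomal protein genes all stayed within 2-fold, with a median of -0.02. Oxidative phosphorylation (78 compared, median 0.07), mitochondrial ribosome (77, -0.05), splicing (49, 0.02), initiation factor (39, -0.13), cell cycle and replication (36, 0.06), nucleolar (35, -0.17) and chromatin (27, 0.05) lists each had at most 3 genes past 2-fold (0% to 8.33% of a list, against 7.32% of all genes). Among cell cycle genes E2f1, which drives entry into S phase, was the 1 that was higher (1.49), at medians of 12.9 and 1.68 TPM and with 2.56 and 0.84 within the paternal groups. Of 10 histone genes 1 was higher (10.0%, against 3.71% of all genes), the linker histone gene H1f0. It was at 8.52 to 135 TPM (median 37.4) against 3.83 to 44.2 (median 12.5), a difference of 1.30 that was 0.62 and 1.88 within the paternal groups. Glycolysis genes (11 compared) had a median of -0.22, which was 0.20 within control-sired and -1.10 within heat-sired embryos. In this list Aldoa, the aldolase gene, was the 1 past 2-fold (-1.01), which is 9.09% of the list against 7.32% of all genes, and Pgam1 was at -0.71. The 12 reference genes had a median of -0.08, with Ppia at 0.00 and Actb at -0.07, and the 4 sex-linked genes compared had one of 0.37.

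**Figure D5:**
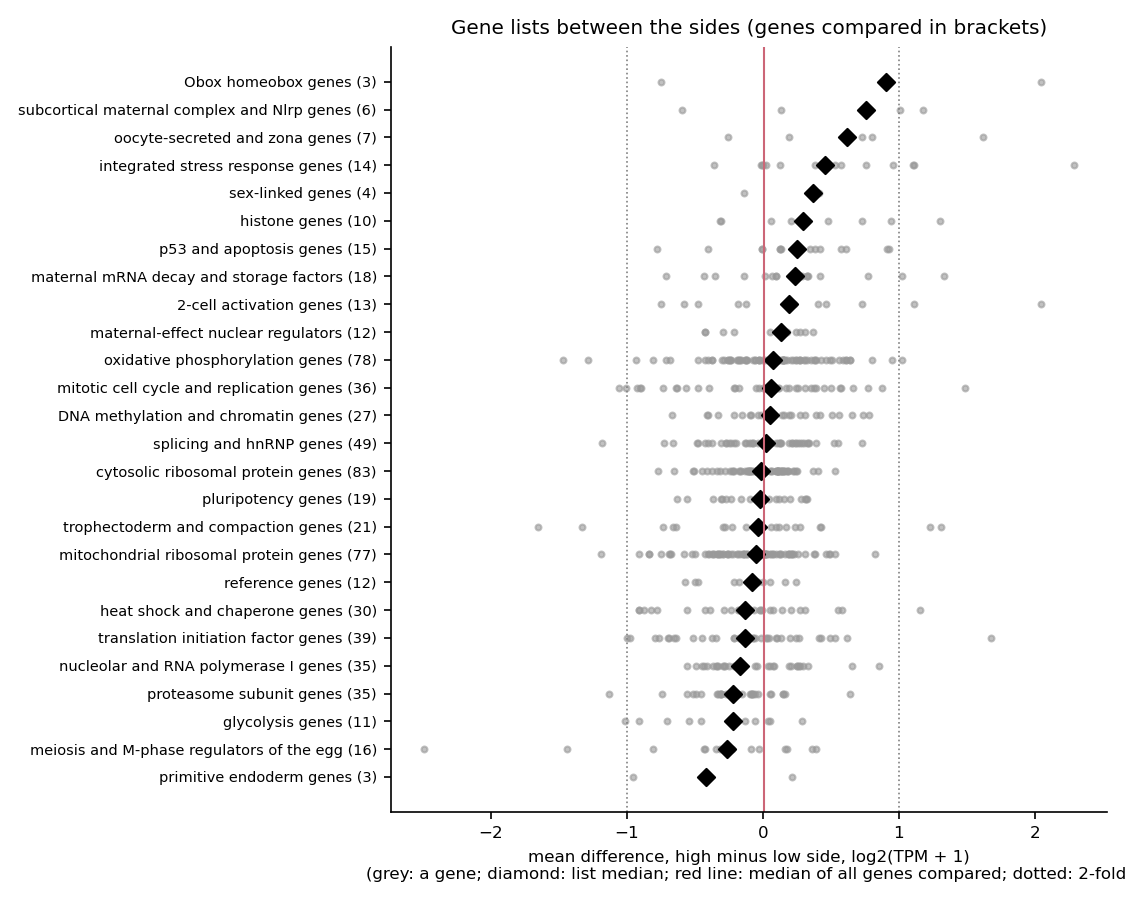
Difference between the sides, mean log2(TPM + 1) of the high less the low side, for each gene compared (grey) and the median (diamond) of each list with at least 3 genes compared; the red line is the median of all 6737 genes (0.01) and dotted lines are 2-fold. The medians run from 0.90 for the 3 Obox genes to -0.42 for the 3 primitive endoderm genes, and the 83 cytosolic ribosomal protein genes all lie within the dotted lines.

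Markers of other cells that an embryo sample could carry were mostly too low to be compared. Of 21 cumulus and granulosa markers 12 were at 0 in all 34 embryos, Fshr, Foxl2, Has2 and Lhcgr among them, and only Amhr2 was compared. Amhr2 was at 7.94 to 95.5 TPM on the high side (median 52.5) and 10.2 to 77.1 on the low side (median 33.1), a difference of 0.45, and the summed level of the list was 7.94 to 95.5 and 10.2 to 77.6 TPM. Of 7 blood markers only Hba-a2, an alpha globin gene, was compared (0.69), and Ptprc and Tyrobp were at 0 in every embryo. The list's sum was 80.9 to 831 TPM on the high side (median 150) and 42.9 to 866 on the low side (median 122), and Hba-a2 alone had medians of 133 and 108 TPM. Of 8 sperm and testis markers none was compared, and the median sum was 0 TPM on both sides. The part of these markers in the gene differences was not tested.

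The sides were next set against the change from the 4-cell stage to the morula, read as morulae less the 12 middle embryos. The score genes themselves are nearly gone in morulae, with medians of 0.49 TPM for Omt2a, 1.56 for Omt2b, 3.64 for Npm2 and 8.09 for Zp3. The 1044 genes at least 2-fold lower in morulae had a median difference of 0.08 between the sides, and 55 (5.27%) were 2-fold higher on the high side and 30 (2.87%) lower. The 743 genes at least 2-fold higher in morulae had a median of -0.05, with 45 (6.06%) higher and 55 (7.40%) lower. For comparison, 3.71% and 3.61% of all genes were. Whether these shares differ from those of all genes was not tested.

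Embryos outside the sides allow a test of whether other genes follow the score. Within the 12 middle embryos, limma with paternal group as a covariate gave 0 genes of 6737 (0%) whose slope on the score passed an adjusted p of 0.05. At an unadjusted p under 0.05 there were 96 positive and 57 negative slopes, the smallest adjusted p was 0.999, and the scores of these embryos spanned only 6.28 to 6.71. Of the 250 genes higher on the high side 56.8% had a positive slope there, as did 40.3% of the 243 lower genes and 50.9% of all genes, and these shares were not tested. Of the 15 leading higher genes 33.3% had a positive slope, with a median of -1.38, and of the 15 leading lower genes also 33.3%, with a median of -1.21. The smallest p was that of 4632427E13Rik, whose slope of -7.42 log2 units per score unit (SE 1.92, limma adjusted p = 0.999) is opposite to its difference between the sides.

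In the 43 morulae, where the score ran from 0 to 4.38, limma gave 3 genes of 7489 (0.0401%) with an adjusted p under 0.05, 1 positive (0.0134%) and 2 negative (0.0267%). Prr13 had a slope of -0.57 log2 units per score unit (SE 0.11, adjusted p = 0.0215) and Gm1821 one of -0.46 (SE 0.09, adjusted p = 0.0381). Vpreb3 had a positive slope of 1.05 (SE 0.22, adjusted p = 0.0381), but it was lower on the high side at the 4-cell stage (-1.61). All 3 calls rest on 1 control-sired morula with a score of 4.38 and 151 TPM of Omt2b: without it 0 genes passed, with 192 positive and 150 negative slopes at an unadjusted p under 0.05. A second control-sired morula had a score of 0, with all 4 score genes listed at 0, and without it 7 genes passed. Of the genes higher on the high side at the 4-cell stage 38.2% of 207 had a positive slope in morulae, of those lower 23.6% of 233, and of all genes 40.9% of 6075. The mean score was 1.91 ± 0.50 in heat-sired (SD, n = 21) and 2.04 ± 0.78 in control-sired morulae (SD, n = 22), a difference of -0.14 (two-sided permutation test, p = 0.519).

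Finally, paternal heat was read with the score held constant over the 34 4-cell embryos. limma called 0 of 6737 genes (0%), with 706 higher and 109 lower in heat-sired embryos at an unadjusted p under 0.05. The latter counts were 287 and 119 with the number of genes detected per embryo added to the fit, which took the median heat coefficient from 0.27 to 0.09. Without the score in the fit there were also 0 calls, with 626 and 105. The smallest adjusted p was 0.167, for Ankrd24, an ankyrin repeat gene, at 0 to 22.1 TPM in control-sired embryos (median 6.90) and 0 to 6.73 in heat-sired ones (median 1.01), a log2 change of -1.79 (SE 0.37). Next came Caprin1, an RNA granule protein gene, at medians of 3.45 and 9.46 TPM (1.13, SE 0.28, limma adjusted p = 0.375), with overlapping ranges of 1.08 to 7.72 and 4.22 to 31.8. The median heat coefficient was 0.27 over all genes, 0.39 over the 250 genes higher on the high side and 0.28 over the 243 lower. Without the score in the fit these medians were 0.25, 0.51 and 0.14. The medians of the 250 and the 243 genes are partly built in, since these genes were picked between sides that differ in paternal mix. The part of that mix in the gene differences was not tested. Whether slopes on the score differ between the paternal groups was asked with an interaction term. It gave 0 calls of 6737 (0%), 202 positive and 223 negative at an unadjusted p under 0.05, and a smallest adjusted p of 0.690 for Neurl2 (2.23, SE 0.52). In a fit that blocks on the replicate number, which the labels do not say pairs embryos, 99 were positive and 548 negative at an unadjusted p under 0.05.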

How the data were processed

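Polyadenylated RNA was measured in single embryos, 34 at the 4-cell stage and 43 morulae. The authors deposited 1 table of TPM for 23845 genes, in which each of the 77 embryo columns sums to 1000000 within 0.92, so read depth is unknown and no counting error can be given. The submitters' processing notes name RSEM, Bowtie2, Trimmomatic and the build mm10, without a version or role for any of them. The 6 sperm libraries were not used here.

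From these values the score, the sides, and differences of mean log2(TPM + 1) were computed, with a pseudocount of 1 and genes at 1 TPM or more in at least 50% of embryos of the stage. The 4 score genes were left out of the gene comparisons. The sides were chosen from the same libraries, so their gene differences carry no p-value. Slopes on the score and paternal heat were fitted with limma 3.58.1 (R 4.3.3) with a mean-variance trend, with Benjamini-Hochberg adjustment over all genes tested. The fits were also run on simulated data, whose outcome is not given here. Permutation tests used 100000 resamples (scipy 1.17.1). Named genes are the 15 largest differences each way with a median of at least 1 TPM, up to 4 most abundant members of each list, a fixed set, and the smallest p-values of each fit. Bcl2l10, Zbed3, Padi6, Aurkb, Aurka, Trib3, Mthfd2, Spz1, Hspb1, E2f1 and H1f0 were named after their values were seen, as were the long noncoding RNAs as a class, the CCT and Omt2 neighbour readings and the rankings' left-out genes. The members and the gene lists were chosen with earlier results of these data known. Of the symbols, 22552 matched RefSeq GRCm38.p6 as current and 1174 as older names, and sequences and coordinates are RefSeq's in that build. Replicate numbers run through both paternal groups, but the labels do not say that they pair embryos. Alternatives covered the pseudocount, filters, centring, side size, score genes, covariates, paternal groups alone and left-out embryos.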

Additional observations from a re-analysis of the deposited data

How the results depend on the processing

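The count of genes at least 2-fold apart between the sides (493) depended on how the sides and differences were formed. It was 1257 with a pseudocount of 0.1, 1048 by medians, 869 with 8 embryos a side, 1647 within control-sired embryos, 1074 within heat-sired embryos, 1381 ranked without Zp3 and 761 with score genes scaled to unit SD. The near-even split of 250 higher and 243 lower became 216 and 1165 without Zp3, of which 82 and 176 were the same genes. It became 212 and 549 with unit SD, 205 and 376 adjusted for genes detected per embryo, 192 and 329 without Omt2b, 626 and 1021 within control-sired and 349 and 725 within heat-sired embryos. The cause of these changes was not tested, and the paternal groups alone also hold fewer embryos a side. The sides ranked without Zp3 also differed in genes detected per embryo, with medians of 7877 (high) and 9105 (low). Over 480 values of the 30 leading genes 477 kept their sign, and the reversed ones, all without Zp3, were Nrn1l (-0.60), 1700084E18Rik (-0.30) and Scarna13 (0.26). These genes were picked for the largest differences and most settings reuse most of the same embryos, so kept signs are partly built in.

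Morula slopes gave 3 calls, 4 with a pseudocount of 0.1, 41 with no filter on low values, 5 with detected genes as a covariate, 0 without the mean-variance trend and 1 without the paternal term. Alternatives chosen after seeing the data gave 0 calls without the morula of highest score, 7 without that of lowest score and 0 without both. The paternal difference of the morula score, -0.14, turned to 0.00122 with a pseudocount of 0.1 and 0.0220 without Omt2b. The interaction gave 1 call with no filter. Same-numbered embryos correlated between -0.38 and 0.198 over 16 pairs (median -0.0596), which gave no sign of pairing. Such weak correlations cannot settle whether the numbers pair embryos, and the labels do not say. With a replicate block the 4-cell score differed by 0.19 (permutation p = 0.424) and the morula score by -0.14, and paternal heat and its interaction with the score gave 0 calls each. With the block the unadjusted counts were 389 and 76 for paternal heat. Of 26 list medians, 7 changed sign without Zp3, namely maternal nuclear regulators (-0.21), 2-cell (-0.23), splicing (-0.11), cell cycle (-0.42), stress response (-0.74), chromatin (-0.11) and sex-linked genes (-0.09), and 8 did within control-sired and 4 within heat-sired embryos.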
